A study of Homo sapiens with 22 samples.

Results

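The libraries described here compare reporter activity in A549 and H520 cells while both were exposed to benzo(a)pyrene (BaP). They are 12 of the 22 libraries of a series on variants that may act on lung cancer risk, in which cells were transfected with pooled luciferase plasmids whose transcripts each carry a short tag. A549 is an established line from a lung adenocarcinoma, and H520 one from a squamous cell carcinoma of the lung. A549 received 10 µM BaP for 18 h in 5 transfections, and H520 received 10 µM BaP for 42 h in 5 transfections. Exposure time therefore cannot be told apart from line. Each line had 1 library of input plasmid DNA, titled as a first version for A549 and a second for H520. Matching sets of 5 transfections per line with the vehicle DMSO serve below as a reference only. The labels give BaP exposure times and none for DMSO. Tags were compared if both inputs held at least 100 counts of them, which kept 211385 of the 238017 tags listed in any library (88.8%). The labels do not say whether transfections came from separate cultures, so p-values measure the spread between these transfections. The files hold tags and no genes, so neither line could be checked against marker genes.

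In a massively parallel reporter assay, a candidate regulatory DNA fragment sits beside a reporter gene, and the tag in the transcript tells which plasmid was transcribed. RNA reads of a tag over DNA reads of the same tag give the activity of that plasmid. Such activity depends on the transcription factors that a cell holds, which differ between adenocarcinoma and squamous lines. BaP is a tobacco smoke hydrocarbon that binds the aryl hydrocarbon receptor. The receptor then enters the nucleus and raises transcription of xenobiotic-metabolising enzymes such as CYP1A1, which convert BaP to DNA-reactive products. As designed sequences, tags have no assigned place in the genome. Which fragment or allele a tag marks was not analysed here, and several tags can mark the same fragment.

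Tags are deposited as 15 bases, with 12 variable bases before a shared ggc. Among tags with at least 500 counts in both inputs and no overlap between the lines' libraries, those below carried the largest line differences that held with both inputs as denominator, 8 in each direction. With fewer input counts, 2 held tags toward A549 and 3 toward H520 had larger differences than the first of each list. The listed tags are written 5′ to 3′ as deposited.
A549 reporter 1: tactatgatttgggc
A549 reporter 2: tacttaattggaggc
A549 reporter 3: tagaatcttgctggc
A549 reporter 4: agaccgttgattggc
A549 reporter 5: gaagagtagctaggc
A549 reporter 6: gtattgatcggtggc
A549 reporter 7: aggaatatctaaggc
A549 reporter 8: gattagtcggagggc
H520 reporter 1: gtcagcgtaaggggc
H520 reporter 2: ttatctttcgcgggc
H520 reporter 3: gattgcttagtcggc
H520 reporter 4: gcgagacgcattggc
H520 reporter 5: aagcgtagcatgggc
H520 reporter 6: tggcttatgaaaggc
H520 reporter 7: tggcgaatttctggc
H520 reporter 8: gattgcgtcataggc

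Activity is log2 of RNA over input, both in tags per M counts (TPM, M for mega) plus 0.5, minus the median of the library, so 0 is the typical tag of the pool. It was computed with each line's own input and again with the H520 input for both lines. With a shared input the denominator cancels between the lines, and the second difference is that of the RNA levels alone. Total counts with BaP were 177.6 to 308.3 M for the A549 libraries and 200.3 to 371.4 M for those of H520, beside 333.5 M and 265.8 M in the A549 and H520 inputs. The tags compared took at least 99.64% of the counts of every one of these libraries. Pairs of libraries of a line differed by more than sampling noise (chi-square per degree of freedom 3.84 to 98.94). Across tags, A549 pairs correlated in activity with a Pearson r of 0.864 to 0.943 and H520 pairs with 0.859 to 0.919. Tags share their library and input, so these are descriptions.

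With BaP, the strongest line difference belonged to reporters that were loud in A549 and below the pool level in H520, while most reporters higher in H520 also stood above the pool level in A549. A tag was called where edgeR's glmTreat placed its line difference beyond 2-fold at a Benjamini-Hochberg adjusted p of 0.05. With own inputs, 370 tags were higher in A549 (0.175% of those tested) and 359 in H520 (0.170%). With the H520 input for both lines, 1058 were higher in A549 (0.501%) and 1180 in H520 (0.558%). Both denominators called 354 tags higher in A549 (0.167%) and 305 higher in H520 (0.144%), and 0 tags were called in opposite directions. In these fits 0.5 was added to the input TPM but not to the RNA. As activity, with 0.5 added to both, the smallest own-input log2 differences of called tags were 0.70 toward A549 and -0.03 toward H520. With limma's treat on activity, at the same limits, both denominators called 311 tags higher in A549 (0.147%) and 96 in H520 (0.0454%). The number toward H520 thus depended on the measure far more than that toward A549. The tag gttaaccgcgggggc was called at -1.71, with activities of -0.17 in A549 and -0.13 in H520 and an input ratio of 0.22. The part of the inputs in such calls was not tested. For comparison, the log2 difference of 95% of all tags lay between -0.48 and 0.60 with own inputs and between -0.66 and 0.73 with the H520 input.

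The 354 tags higher in A549 had a median log2 activity, by library and with own inputs, of 2.26, 2.31, 1.96, 2.14 and 1.81 in A549 transfections 1 to 5. In H520 transfections 1 to 5 the same medians were -0.13, -0.13, -0.13, -0.15 and -0.15. No library of one line came near those of the other, and in all 354 tags the 5 A549 values lay above the 5 H520 values with either input. Over all tags tested, 9.78% were separated in that direction. The median log2 difference was 2.18 with own inputs and 2.32 with the H520 input. These tags took 2.41 to 3.45% of all counts in A549 and 0.172 to 0.178% in H520. They made up 0.264% of the A549 input and 0.197% of the H520 input.

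Among them, 89 tags stood at a log2 activity of 4 or above in A549 while below 0 in H520, limits chosen after the values were seen. Their median by library was 4.65, 4.77, 4.41, 4.67 and 4.21 in A549 transfections 1 to 5. In H520 it was -0.34, -0.32, -0.32, -0.31 and -0.33. The A549 libraries were high in all 5 transfections, with transfection 5 the lowest, and the H520 libraries were close to each other. By their means, the 89 tags spanned 4.19 to 4.93 in A549 and -0.74 to -0.02 in H520. Together they drew 1.71 to 2.71% of A549 counts and 0.0388 to 0.0393% of H520 counts. Of all 354 tags, 134 had an A549 activity of 1 to 2, 96 one of 2 to 3, 21 one of 3 to 4 and 90 one of 4 to 5, so few lay just under the strongest.

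A549 reporter 1 read 158, 183, 143, 186 and 119 TPM in A549 transfections 1 to 5. In H520 it read 1.86, 1.59, 1.74, 1.39 and 1.5 TPM. Every A549 library was high and every H520 library low, and the lines did not overlap. A549 activity averaged 4.66 ± 0.24 (SD, n = 5), against -0.74 ± 0.12 (SD, n = 5) for H520. The log2 difference was 5.79 with own inputs (edgeR adjusted p = 4.65e-16), which is 55.4-fold, and 6.74 with the H520 input (edgeR adjusted p = 1.71e-17).

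A549 reporter 3 is the one of the 8 whose inputs were most alike, with 1.28 times as much in the A549 input as in the H520 input. It read 142, 161, 124, 154 and 103 TPM in A549 and 2.46, 2.61, 2.20, 2.57 and 2.59 TPM in H520. The A549 libraries were again all far above those of H520. Its log2 difference was 5.59 with own inputs and 5.92 with the H520 input, so the choice of denominator moved it by less than for reporter 2, which went from 5.78 to 6.95.

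All 8 A549 reporters shared this shape. Their A549 activities were 4.61 to 4.78 and their H520 activities -0.74 to -0.44, with own inputs. In A549, each of the 8 was lowest in transfection 5, at 4.27 to 4.47, and 5 of the 8 were highest in transfection 4, the other 3 in transfection 2. All 8 were more abundant in the A549 input, by 1.28 to 2.52 times. The A549 input held more of 88 of the 89 strongest tags too, by a median of 1.92 times (range 0.900 to 2.99). The part of the inputs in their activity was not tested. The 8 reporters differed 45.0 to 55.4-fold with own inputs. With the H520 input for both lines they differed 60.7 to 124-fold. That second fold is of the RNA levels alone, so it does not correct for more of a tag in the A549 input.

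The 305 tags higher in H520 differed by less and from a different starting level. Their median log2 activity was 2.28, 2.21, 2.12, 2.25 and 2.28 in H520 transfections 1 to 5. In A549 it was 0.85, 0.76, 0.69, 0.73 and 0.62. All 10 libraries stood above the pool median, and the lines did not overlap. The median log2 difference was -1.37 with own inputs and -1.52 with the H520 input, and the libraries of the lines were separated with both inputs in 300 of the 305 tags (8.96% of all tags were separated in that direction). In A549, 255 of these tags had an activity above 0 and 43 had one between 2 and 3. In H520, 22 stood between 4 and 5.

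H520 reporter 1 read 18.6, 17.6, 16.3, 17.9 and 18.3 TPM in H520 transfections 1 to 5. In A549 it read 3.70, 3.14, 2.49, 2.89 and 2.17 TPM. All H520 libraries were above all A549 libraries. Its activity was 2.59 ± 0.07 (SD, n = 5) in H520 and 0.55 ± 0.20 (SD, n = 5) in A549. The log2 difference was -2.22 with own inputs (edgeR adjusted p = 3.57e-05) and -2.49 with the H520 input (edgeR adjusted p = 4.42e-06).

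H520 reporter 3 had nearly equal inputs, with 0.996 times as much in the A549 input. It read 31.3, 29.4, 27.5, 30.7 and 32.8 TPM in H520 and 8.10, 7.54, 6.31, 6.37 and 5.86 TPM in A549. Its log2 differences were -2.02 and -2.02 (edgeR adjusted p = 1.07e-18 and 1.11e-18), so both denominators gave the same value. H520 reporter 6 was the most active of the 8, at 3.06 ± 0.10 (SD, n = 5) in H520 against 1.14 ± 0.09 (SD, n = 5) in A549.

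Over the 8 H520 reporters, activity was 2.11 to 3.06 in H520 and 0.31 to 1.14 in A549, and they differed 3.82 to 4.66-fold with own inputs. Their largest fold was thus far under the 45.0-fold of the A549 reporter with the smallest difference. All 8 were lowest in H520 transfection 3. In A549, 7 of the 8 were highest in transfection 1. Input ratios of A549 over H520 were 0.685 to 1.06.

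The tags called with both denominators differed in which line they were active in. A tag was counted as active where limma's treat placed it more than 2-fold above the library median. In A549 this held for 1968 tags with the own input (0.931%) and 2257 with the H520 input (1.07%), and for 1862 with both (0.881%). In H520 it held for 1782 tags (0.843%). Tags placed more than 2-fold below the median were few, with 9 in A549 with the own input (0.00426%), 42 with the H520 input (0.0199%) and 26 in H520 (0.0123%). Without A549 transfection 4 or 3 the own-input count in A549 was 1018 or 1305. Of the 354 tags higher in A549, 305 were active in A549 and not called active in H520, 1 was active in both and 48 in neither. Of the 305 tags higher in H520, 193 were active in H520 and not called active in A549, 65 were active in both and 47 in neither. The tags chosen for a line difference are bound to differ in this respect, so the counts are a description.

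A larger group of tags was higher in A549 on average but was not called by both denominators. In it the A549 transfections differed among themselves. In 1752 tags the mean log2 difference exceeded 1 toward A549 with both denominators, and 1406 of these were not called by both. In H520 the median log2 activity of the 1406 was 0.31, 0.36, 0.41, 0.42 and 0.33 by library. In A549 transfections 1 to 5 it was 1.16, 1.42, 2.36, 2.36 and 2.73. Transfections 1 and 2 were thus low and 3 to 5 high, all above H520. In 1357 of the 1406 (96.5%) both of the first were under all of the last 3, against 14.7% of all tags. The group took 2.81, 3.47, 7.13, 7.37 and 9.39% of counts in A549 transfections 1 to 5, and 1.10 to 1.30% in H520.

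In the DMSO libraries, which had no part in choosing these tags, the A549 transfections differed among themselves too. With own inputs the medians of the 1406 were 2.04, 1.28, 1.48, 2.15 and 2.46 in A549 transfections 1 to 5, with transfections 2 and 3 the lowest, and 0.31 to 0.43 in H520. By contrast, the 354 tags called higher in A549 stood at 2.30, 2.15, 2.08, 2.22 and 2.01 with DMSO. The median SD between the 5 A549 BaP libraries was 0.69 for the 1406 tags, 0.24 for the 354 and 0.09 over all tags. Between H520 libraries it was 0.11, 0.09 and 0.09. Tags with a large mean difference miss a call where their libraries spread widely. The wide spread of the 1406 tags with BaP thus follows in part from how they were chosen, and is a description.

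The number of calls toward A549 moved with these transfections. Without A549 transfection 1, both denominators called 578 tags higher in A549 and 354 in H520. Without transfections 1 and 2 together, an alternative added after the data were seen, they called 1998 and 393, and 1349 of the 1406 tags were among the 1998. Transfections 1 and 2 were those in which the 1406 tags were low, so leaving them out favours such calls. Without robust dispersions the counts were 1181 and 305. The 8 A549 and 8 H520 reporters were called in each of these 3 fits.

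Among the tags not called by both denominators, those with the largest mean differences and an SD in A549 of at least the group's median show the pattern. They were chosen after their values were seen.
Variable reporter 1: aaattaagtacgggc
Variable reporter 2: agtttcttaatgggc
Variable reporter 3: atactttatcgtggc
Variable reporter 1 read 60.8, 82.2, 141, 214 and 217 TPM in A549 transfections 1 to 5. In H520 it read 11.5, 13.1, 13.0, 13.7 and 11.4 TPM. The A549 libraries were spread widely, and all lay above H520. Its log2 difference was 2.81 with own inputs (edgeR adjusted p = 0.0934) and 3.68 with the H520 input (edgeR adjusted p = 0.00612). Variable reporters 2 and 3 gave 2.81 and 2.74 with own inputs (edgeR adjusted p = 0.0634 and 0.113). With the H520 input they gave 3.25 and 3.81 (edgeR adjusted p = 0.00921 and 0.0048). All 3 were thus called with the H520 input and not with own inputs. Unlike the strongest A549 reporters, all 3 stood above the pool in H520, at 0.78 to 1.48.

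The most active tags of each line with BaP, ranked by the lower of both denominators' values, came in 2 kinds. Those of A549 were ggagtaatccgcggc, atactaccggaaggc and gcagcgtacgcaggc. The first and the third resembled the A549 reporters, with own-input activities of 4.93 ± 0.23 and 4.86 ± 0.23 (SD, n = 5) in A549 and -0.25 ± 0.11 and -0.20 ± 0.10 (SD, n = 5) in H520. The tag atactaccggaaggc was active in both lines, and its reading depended on the input. It read 657, 857, 1536, 1859 and 2205 TPM in A549 and 99.7, 118, 143, 129 and 112 TPM in H520. The A549 input held 9.51 times as much of it as the H520 input, with 16673 and 1397 counts. Its log2 difference was 0.59 with own inputs (edgeR adjusted p = 1) and 3.73 with the H520 input (edgeR adjusted p = 0.00365).

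The most active tags of H520 were tgcgcgtcgaaaggc, gcgcatcgttagggc and cgccgtcgaaagggc, with activities of 4.88 ± 0.26, 4.76 ± 0.26 and 4.72 ± 0.26 (SD, n = 5). They read 4.76 ± 0.74, 4.86 ± 0.72 and 4.71 ± 0.73 (SD, n = 5) in A549 with its own input, and 7.70, 7.05 and 7.19 with the H520 input. The A549 input held 8.18, 4.79 and 5.73 times as much of them. None of the 3 is a difference that holds with both denominators. In A549 each was lowest in transfection 1 and highest in transfection 5, as were the variable reporters.

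Which input served as denominator decided many calls. The differences of a tag with each denominator are set apart by its input ratio. Tags called with only a single denominator are thus bound to have input ratios on that side, and the ratios below are a description. With the H520 input alone, 704 tags were called higher in A549 that were not called with own inputs, and the A549 input held more of 700 of them, by a median of 1.83 times. A further 875 tags were called higher in H520 with the H520 input alone. The A549 input held more of 0 of these 875, with a median ratio of 0.494, and their median lower input count was 250, where it was 1009 over all tags. With own inputs alone the calls were 16 toward A549 and 54 toward H520. Among the latter, tagttgcgtaagggc read -1.48 with own inputs (edgeR adjusted p = 4.03e-08) and -0.78 with the H520 input (edgeR adjusted p = 1). Toward A549, agttccgacgtcggc read 1.35 (edgeR adjusted p = 0.0056) and 0.46 (edgeR adjusted p = 1). The other tags named in these classes, atccgcaaagggggc and aagtttccgactggc, went from -1.21 to -0.68 and from 1.38 to 0.80. Inputs differed at least 2-fold in 49 of the 354 tags higher in A549, with more in the A549 input in each, and in 16 of the 305 tags higher in H520, with less in each. Of all 211385 tags, 1740 had at least 2-fold more in the A549 input and 2799 at least 2-fold less. The A549 input held more of 268 of the 354 tags, of 76 of the 305 and of 102929 of all tags. Input imbalance in the direction of the call was thus more frequent among the held tags than over all tags.

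The differences held by both denominators were spread over strata of activity. These were set by the mean of the DMSO libraries of both lines with the H520 input. Of 107171 tags under the DMSO pool level, 0 were called higher in A549 and 18 higher in H520. Between 0 and 1, the counts were 124 and 89 of 101581 tags. Between 1 and 2 they were 123 and 122 of 1592 (7.73% and 7.66%), and between 2 and 3 they were 101 and 50 of 732 (13.8% and 6.83%). At 3 or more, 6 and 26 of 309 tags were called (1.94% and 8.41%). Calls were thus most frequent among tags with a high mean activity with DMSO, and in the top stratum more were higher in H520. A tag loud in either line with DMSO has a raised mean, and the strata share the H520 input with the calls. The rise with activity is therefore partly fixed by how the strata were set, and is a description. In that stratum the median log2 difference was 0.78 with own inputs and 2.47 with the H520 input.

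The held tags covered input counts from the limit upward. Those toward H520 with the fewest, gcgagcgtctaaggc and cgatcgtttaggggc, had 100 and 102 counts in the lower input. The first read 0.161, 0.135, 0.217, 0.137 and 0.106 TPM in A549 and 0.782, 0.659, 0.797, 0.687 and 0.816 TPM in H520. Its edgeR log2 difference was -1.79 with own inputs (adjusted p = 0.00447), but -0.44 as activity, where 0.5 is added to each TPM. With DMSO it was -1.01 (edgeR adjusted p = 1). This tag lies 1 base from a tag with at least 100 times its RNA level, and the part of misread copies in its counts was not tested. At the other end, ggcgagcgttaaggc had 9197 counts in the lower input and read 575, 621, 540, 690 and 565 TPM in H520 and 182, 169, 122, 127 and 106 TPM in A549. Its edgeR log2 difference was -1.74 with own inputs (adjusted p = 6.92e-07). The next by input count, agatttctaggaggc, read -1.40. Toward A549, the tags with the fewest input counts, aacgactactgcggc and tacgacgttgctggc, read 4.81 and 1.73, and those with the most, ttaagtcggctgggc and gcaatttgcccgggc, read 5.08 and 1.57. Both ends of the input range therefore held large and small differences toward A549. With limma's treat on activity, 311 tags were called higher in A549 by both denominators (0.147%) and 96 in H520 (0.0454%), of which 309 and 95 were among the edgeR calls. In the 10 count values from the limit of 100 upward lay 1160 tags, and 3 differed over 2-fold with own inputs and 11 with the H520 input. In the 10 count values just under the limit, 4 and 24 of 1169 tags did.

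The held tags were close to the pool in base composition. Part of those higher in H520, and a smaller part of those higher in A549, shared a stretch of letters. Mean G and C content of the 12 variable bases was 47.3% ± 12.7 (SD over 354 tags) for those higher in A549, 49.3% ± 12.0 (SD over 305 tags) for those higher in H520 and 47.7% ± 12.5 over all tags. The median log2 difference of all tags fell slightly with G and C content, from 0.08 at up to 4 such bases to -0.08 at 8 or more, with either denominator. Searched on both strands of the deposited 15 bases, the core GCGTG, to which the aryl hydrocarbon receptor binds in DNA, was in 1 of 354 and 1 of 305 held tags and in 0.568% of all tags. The AP-1 site TGANTCA was in 1 and 0 held tags (0.0624% of all tags) and the TATA-like TATAAA in 3 and 0 (0.314%). The polyadenylation hexamer AATAAA was in 0 of the 238017 listed tags. The held tags with a match to these motifs and the largest differences are written with the match in capitals.
With GCGTG: tggatcgcGCGTGgc
With TGANTCA: gaTGACTCAtaaggc
With TATAAA: gccTTTATAgtcggc
Their log2 differences with own inputs were 2.65, 2.23 and 2.34 (edgeR adjusted p = 0.0216, 0.000214 and 0.00144). With own inputs limma's treat called those with TGANTCA and TATAAA (adjusted p = 2.37e-07 and 0.000838) but not that with GCGTG (adjusted p = 0.0752). The GCGTG tag rose over A549 transfections 1 to 5, at 12.2, 14.6, 22.7, 23.3 and 30.95 TPM. Its match takes in the first base of the shared ggc. A match is a description of the tag and says nothing of the fragment it marks. A tag can also gain counts from misread copies of a more abundant tag. Of the tags higher in A549, 0 of 354 lay 1 base from a tag with at least 100 times their RNA level, as did 1 of 305 higher in H520 and 0.258% of all tags.

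Longer stretches stood out among the held tags. They were looked up after the held tags were seen, so their counts are a description with no test. TTGCGTCA, on either strand, was in 45 of the 305 tags higher in H520 (14.8%), in 0 of the 354 higher in A549 and in 162 of all tags (0.0766%). Its shorter form TTGCGT was in 62 of the 305 (20.3%), in 0 of the 354 and in 0.916% of all tags, and it had the largest excess over all tags of any 6 letters in the H520 set. TTGCGTAA was in 12 of the 305 (3.93%) and in 0.115% of all tags. Examples with TTGCGTCA in capitals, the first being H520 reporter 8, are those with the largest differences among tags of at least 500 input counts.
H520 reporter 8: gaTTGCGTCAtaggc
With TTGCGTCA: ccgTTGCGTCAgggc
With TTGCGTCA: cgTTGCGTCAgaggc
H520 reporter 8 read 17.8, 16.2, 15.8, 17.0 and 18.0 TPM in H520 transfections 1 to 5 and 2.996, 3.24, 2.92, 3.07 and 2.66 TPM in A549. Every H520 library was above every A549 library. Over all 162 tags with TTGCGTCA, the median log2 activity was 0.95, 0.85, 0.82, 0.89 and 0.96 in H520 and 0.27, 0.27, 0.25, 0.26 and 0.24 in A549. By mean activity with own inputs, 141 of the 162 were higher in H520 and 21 in A549. The median log2 difference was -0.62 with own inputs and -0.69 with the H520 input, and -0.54 and -0.63 with DMSO. The 117 that were not held had a median of -0.30 with own inputs.

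Toward A549 the shared stretch was TGCCCGGGC, which takes in the fixed ggc at the end of the tag. It was in 20 of the 354 tags higher in A549 (5.65%), in 0 of the 305 higher in H520 and in 57 of all tags (0.027%). None of the 89 strongest A549 tags held it (0 of 89). Held tags with it and the largest differences, by the same limit on input counts, were these.
With TGCCCGGGC: caagcaTGCCCGGGC
With TGCCCGGGC: gaagcaTGCCCGGGC
With TGCCCGGGC: acgactTGCCCGGGC
The tag acgacttgcccgggc read 37.6, 37.1, 26.3, 27.8 and 25.1 TPM in A549 and 5.76, 5.73, 5.89, 5.82 and 6.08 TPM in H520, with no overlap. Its log2 differences were 2.61 and 2.53 (edgeR adjusted p = 1.56e-07 and 1.72e-07). Over all 57 tags the median activity was 1.09, 0.87, 0.62, 0.70 and 0.70 in A549 and 0.03 to 0.07 in H520, and 53 of the 57 were higher in A549 by their means. The median log2 difference of the 57 was 0.85 with own inputs and 0.67 with the H520 input. The 57 include the 20 held tags, and the 37 that were not held had a median of 0.24 with own inputs. Among the 89 strongest A549 tags the 6 letters with the largest excess over all tags, ATAGCG, were in 6 (6.74%, against 1.68% of all tags). Tags that share a stretch are not independent of each other.

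The same comparison in the DMSO libraries gave nearly the same sizes. With own inputs the median log2 difference of the 354 tags was 2.20 with DMSO beside 2.18 with BaP, and that of the 305 tags was -1.29 beside -1.37. A549 reporter 1 read 5.91 with DMSO and 5.79 with BaP, and H520 reporter 1 read -2.10 and -2.22. The comparisons share the inputs, and the tags were chosen in the BaP libraries, which favours larger values there. Over all tags, DMSO gave 473 calls higher in A549 (0.224%) and 312 in H520 (0.148%) with own inputs, and 1335 (0.632%) and 946 (0.448%) with the H520 input. Whether the line difference itself differed between BaP and DMSO was tested as the interaction of line and treatment over all 20 RNA libraries. edgeR called 0 of 211385 tags (0%), and 7208 had an unadjusted p under 0.05 (3.41%). Among the held tags such a p was found in 1 of 354 (0.282%) and 24 of 305 (7.87%), all with an adjusted p of 1. The tag with the smallest p, ggattacgtaaaggc, had a log2 difference of -0.33 with DMSO and -0.66 with BaP, with the H520 input (interaction -0.33, edgeR adjusted p = 1).

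Values of whole libraries also separated the lines. In A549 the top 10 tags by abundance drew 0.906, 0.997, 1.69, 2.07 and 2.59% of counts in transfections 1 to 5. The mean was 1.65% ± 0.716 (SD, n = 5), against 0.374% ± 0.029 (SD, n = 5) for H520, from 0.353 to 0.420% (two-sided exact permutation p = 0.00794, adjusted p = 0.00907 over 8 tests). For the top 100 the shares were 6.94% ± 2.43 in A549 (SD, n = 5), against 1.82% ± 0.117 for H520 (SD, n = 5). Both are shares of RNA counts and are not divided by the input. Of the most active tags named above, those active in both lines were 4.79 to 9.51 times as abundant in the A549 input. The part of the inputs in these shares was not tested. The number of tags at a log2 activity of 1 or more was 2746, 2971, 3456, 3560 and 3714 in A549 transfections 1 to 5 with own inputs. In H520 it was 2299, 2268, 2185, 2381 and 2276. More reporters therefore stood over 2-fold above the pool in every A549 library than in any H520 library. The number at -1 or less averaged 52.6 ± 25.1 (SD, n = 5) for A549 with its own input, against 87.4 ± 25.1 (SD, n = 5) for H520, and the lines overlapped (exact permutation p = 0.0794; adjusted p = 0.0397 without A549 transfection 1). With the H520 input it was 400 ± 139 (SD, n = 5) in A549, above the H520 value, so the direction turned with the denominator, and with a pseudocount of 5 that difference shrank to 0.4 tags (exact permutation adjusted p = 1). The remaining values of this kind did not overlap between the lines and reached an exact permutation p of 0.00794, the smallest that 5 against 5 can give.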

How the data were processed

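Reads of reporter tags were counted in RNA from cells and in the input plasmid DNA. Per the labels' protocols, polyadenylated RNA was copied into cDNA and the stretch with the 12-base tag was amplified; no molecular identifiers are described, so reads are not independent molecules. Of the upstream tools, bcl2fastq is named in the submitters' processing notes (version not stated), and no source used here gives the counting step. The deposited tables hold, per the file headers, a raw count of each tag, a library total and a TPM value, and the deposited TPM equals the count per M of that total.

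The 22 tables were merged by tag, and an unlisted tag was set to 0. Tags with at least 100 counts in both inputs were tested; filterByExpr removed none. edgeR 4.0.16 (quasi-likelihood, robust dispersions, glmTreat at 2-fold) was fitted on the 10 BaP libraries, with an offset of library total, input TPM plus 0.5 and library median activity. limma 3.58.1 tested activity, and DESeq2 1.42.0 was an alternative. Adjusted p-values are Benjamini-Hochberg over all 211385 tags. Each line has 1 input, so its error is in no test.

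The members, lists and limits were chosen with earlier results of these data known. Named tags had at least 500 counts in both inputs and no overlap of the lines' libraries, and were ranked by the smaller of both absolute differences. The most active tags, the own-input calls closest to 0 with the H520 input, motif matches, extremes of input count and the smallest interaction p were also named. The 3 variable reporters and the stretches of letters shared by held tags were added after their values were seen.

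On simulated counts with the real tags and no other line difference, each size was given to 200 tags. With own inputs 0% were called at 1.5-fold, 95.5% at 3-fold and 100% at 4-fold, and 0 of 210785 unchanged tags. With the H520 input these were 0%, 94.0%, 99.0% and 0. Each simulated tag had the same dispersion in both lines, and its input counts were taken as exact. A spread that differs between the lines and error in the inputs are therefore not part of these rates.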

Additional observations from a re-analysis of the deposited data

Results flagged for a closer look

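Counts also appeared in tags that neither input listed. In the BaP libraries 3861 such tags had RNA counts, 6.24 per M counts on average over the 10 libraries. The level was 7.04 ± 2.66 per M (SD, n = 5) in A549, from 4.48 to 10.2, and 5.44 ± 0.474 per M (SD, n = 5) in H520, from 5.14 to 6.27, so the lines overlapped. No such tag exceeded 28 counts in a library. These tags were left out of every comparison by the limit on input counts.

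Single libraries far from the other 4 of their group were sought in 66 groups of 5 values, over the library values and the activities of the named reporters and most active tags. Chance marks about 1 group in 20, and 0 were marked.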

How the results depend on the processing

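The 8 A549 and 8 H520 reporters kept their direction under all 27 alternatives, and 430 of 432 values kept their call. The exceptions came from limma with a pseudocount of 5, at -1.07 for aagcgtagcatgggc and -1.23 for gattgcgtcataggc.

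Counts of calls that moved by over 1.5 times are given next, and the cause was not tested unless the number of tags, libraries or the threshold changed. With at least 10 input counts, own inputs called 647 tags higher in H520, the H520 input 1824 higher in A549 and 2236 in H520, and both denominators 588 higher in H520. With at least 500, the H520 input called 568 and 423. With limma, own inputs called 129 tags higher in H520 at a pseudocount of 0.5, 128 at 0.1 and 35 at 5, where 213 were higher in A549. With the H520 input limma called 531 and 264 at 0.5, 457 higher in H520 at 0.1, and 309 and 89 at 5. Both denominators with limma called 96 higher in H520 at 0.5, 91 at 0.1, and 209 and 29 at 5. A 1.5-fold threshold gave 1835 and 1716 with own inputs, 6534 and 7941 with the H520 input and 1482 and 1412 with both. No fold threshold gave 47746 and 60814, 63183 and 73551, and 32841 and 41439. Without robust dispersions 1287, 1908 and 1181 tags were higher in A549 by own inputs, the H520 input and both. One fit over all 20 RNA libraries gave 674 by own inputs and 629 by both. An adjusted p of 0.01 gave 644 higher in A549 with the H520 input. Without A549 transfections 1 and 2 together, chosen after the data were seen, 2142, 2628 and 1998 were higher in A549.

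Leaving out 1 library at a time gave 320 to 625 higher in A549 and 318 to 407 in H520 with own inputs, 748 to 1695 and 1020 to 1224 with the H520 input, and 306 to 578 and 269 to 354 with both. Active tags in A549 then ranged from 1018 to 2022 with the own input and from 1820 to 2291 with the H520 input, and in H520 from 1711 to 1783. With a pseudocount of 5, active tags were 503 and 520 in A549 and 1102 in H520. The A549 minus H520 difference in tags at -1 or less ranged from -41.9 to -24.15 with own inputs on leaving out a library (exact permutation, adjusted p = 0.0397 without A549 transfection 1), and was 0.4 with the H520 input at a pseudocount of 5.

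With the transfection number as a replicate block, 371 and 375 tags were called with own inputs, 781 and 1130 with the H520 input and 341 and 317 with both, and the block moved no count by over 1.5 times. The labels share these numbers, but deviations of same-numbered A549 and H520 libraries correlated at -0.0363 to 0.031 across tags, and 0 of 10 libraries correlated best with their own number, so they were not taken as pairs. The interaction called 0 tags with the block within lines, with 10232 at an unadjusted p under 0.05, and 0 with TMM normalization. The remaining 247 values of main results kept their call or stayed within 1.5 times. At 100 input counts, an input value rests on few reads, and the inputs were not replicated.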
